A study of Mus musculus with 24 samples.

Results

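Tamoxifen-treated mice were compared with corn oil-treated mice across 2 genotypes, 12 against 12, for the part of the cortical response that both genotypes had in common. All 24 libraries of the series entered the comparison. Each library was bulk RNA-seq of the cortex of 1 C57BL/6 mouse. The group WT_control held TREM2-WT+/+; Cx3cr1CreER/+ mice given corn oil, and WT_induced held mice of that genotype given tamoxifen. R47H_control and R47H_induced were the same pair of treatments in TREM2-R47H+/+; Cx3cr1CreER/+ mice. Each group had 6 mice, 3 males and 3 females according to the series text, and no label of sex or age was used per sample. The Xist level of each library was a covariate in an alternative fit only. All mice, controls included, carried Cx3cr1CreER, a Cre recombinase that needs tamoxifen and is driven from a gene of microglia and other macrophages, and a TREM2 construct. Tamoxifen was given to switch on TREM2 in microglia. A group given tamoxifen but lacking Cre was not analysed here, so an effect of the drug and an effect of the induced TREM2 cannot be told apart. In bulk cortex, fewer cells of a type and less RNA per cell cannot be told apart either.

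Tamoxifen is metabolised in the liver to compounds that bind oestrogen receptors alpha and beta, encoded by Esr1 and Esr2, and block or activate them depending on the tissue. It also binds enzymes of late cholesterol synthesis, among them the sterol isomerase encoded by Ebp, and as a lipophilic amine it accumulates in lysosomes. Mice that carry CreER are treated with it to let Cre enter the nucleus, and the drug reaches every cell of the animal, not only those with Cre. TREM2, a surface receptor for lipids and lipoproteins, is made in the brain by microglia and signals through the adaptor Tyrobp and the kinase Syk.

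Measures of the whole library overlapped between the treatments. Total counts per library ranged from 27933505 to 56082520, and their means in the treatments differed by less than the spread between mice (two-sided exact permutation p = 0.314, labels permuted within genotype). Yam1, Lars2 and AY036118, 3 genes that resemble rRNA, took 18.1% of counts in control and 17.7% in induced libraries (exact permutation p = 0.717). Immune genes were far higher in WT_induced replicate 6 than in the rest of its group, and the main results on such genes are given with and without that library.

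No gene passed the test for a treatment effect common to both genotypes. Of 19678 genes tested with edgeR's quasi-likelihood test in an additive model of genotype and treatment, 0 were higher (0%) and 0 were lower (0%) in induced mice at a Benjamini-Hochberg adjusted p below 0.05. At an unadjusted p below 0.05, 475 genes were higher (2.41%) and 416 were lower (2.11%). DESeq2 called 2 genes, both lower, and limma-voom called 0. The lowest adjusted p in edgeR was 0.0845, for Stab1. The median log2 fold change over all tested genes was 0.00, and 53.3% of the values were positive. No gene was called for a difference between genotypes in its treatment effect either (0 of 19678 for the edgeR interaction, lowest adjusted p = 0.303). That does not show equal effects. At an unadjusted p below 0.05 there were 1562 genes for the interaction, against 891 for the common effect. The treatment effect had the same sign in WT and R47H mice for 9165 genes (46.6%).

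The precision of the comparison bounded what could have been missed of the common effect. It did not bound effects within a genotype, since opposite effects in WT and R47H mice cancel in the common value. The median standard error (SE) of a log2 fold change was 0.05. The 95% confidence interval of the treatment effect lay within 1.2-fold in either direction for 13642 genes (69.3%), within 1.5-fold for 17995 (91.4%) and within 2-fold for 19309 (98.1%). Among the 15784 genes with a mean of at least 1 CPM (the count relative to a TMM-scaled library size), 98.2% had an interval within 1.5-fold. Below 1 CPM the intervals were wider.

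**Figure D1:**
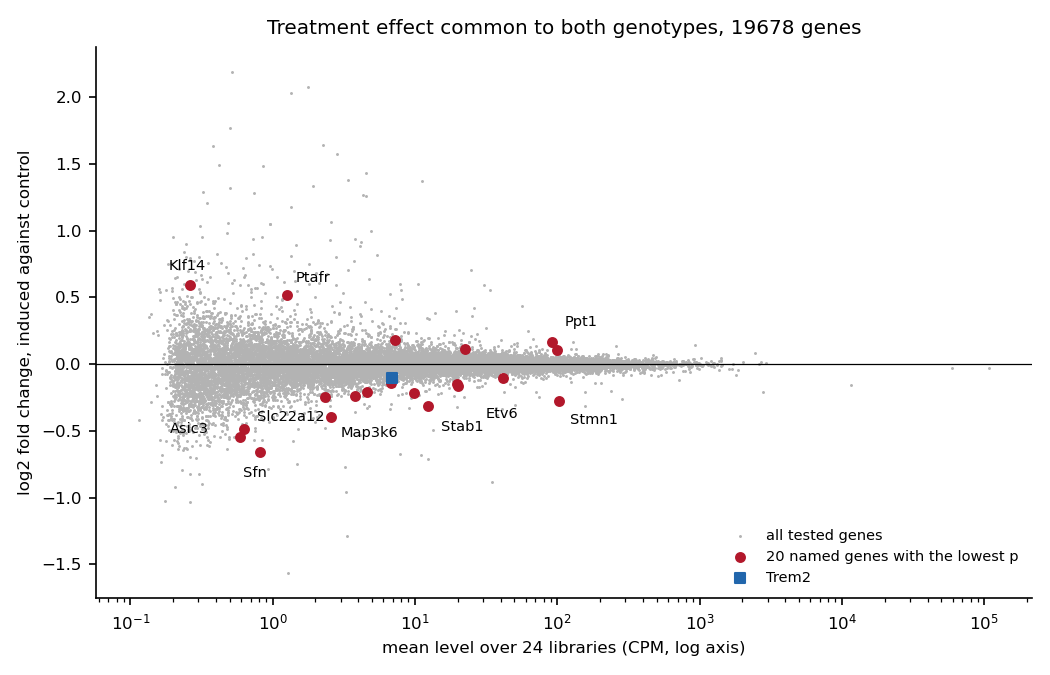
Log2 fold change of induced against control mice (vertical axis) against the mean level over 24 libraries in CPM (horizontal log axis), with 1 grey point for each of 19678 tested genes. Red points are the 20 genes with a proper symbol and the lowest p, of which 14 lie below 0 and 6 above, and the blue square is Trem2 at -0.10. The spread narrows as the level increases.

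Stab1 had the lowest p of all genes. It encodes stabilin-1, a scavenger receptor of tissue macrophages and sinusoidal endothelium, and lies on chromosome 14 (31139013 to 31168641, mm10). Its level in control mice had a lowest value of 12.3, a median of 14.1 and a highest value of 15.4 CPM. In induced mice the lowest, median and highest levels were 8.50, 11.1 and 13.2 CPM. All 12 induced libraries lay below the control median and 9 of them below the lowest control library, so the treatments overlapped only in 3 induced libraries. The log2 fold change was -0.31 (SE 0.06, 95% interval -0.42 to -0.20, edgeR adjusted p = 0.0845). It was -0.30 in WT and -0.32 in R47H mice, and the difference between the genotypes had an adjusted p of 0.987. Stab1 ranked first in each of 38 fits with other settings, at -0.33 to -0.28, and passed the threshold in 5 of them (adjusted p from 0.000996 to 0.312). Those 5 were DESeq2 (adjusted p = 0.000996), the fit with no filter on low counts (0.0377), and the fits without WT_induced replicate 2, 4 or 6 (adjusted p = 0.0488, 0.0303 and 0.0307).

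Etv6, a transcriptional repressor of the ETS family used in blood stem cells and vessels, came next. Its level ran from 19.2 to 22.3 CPM (median 20.7) in control and from 15.9 to 20.2 CPM (median 18.7) in induced mice. All 12 induced libraries lay below the control median and 10 below the lowest control library. The log2 fold change of Etv6 was -0.15 (SE 0.03, edgeR adjusted p = 0.574), with -0.12 in WT and -0.19 in R47H mice. DESeq2 called Etv6 at -0.15 (adjusted p = 0.0399).

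**Figure D2:**
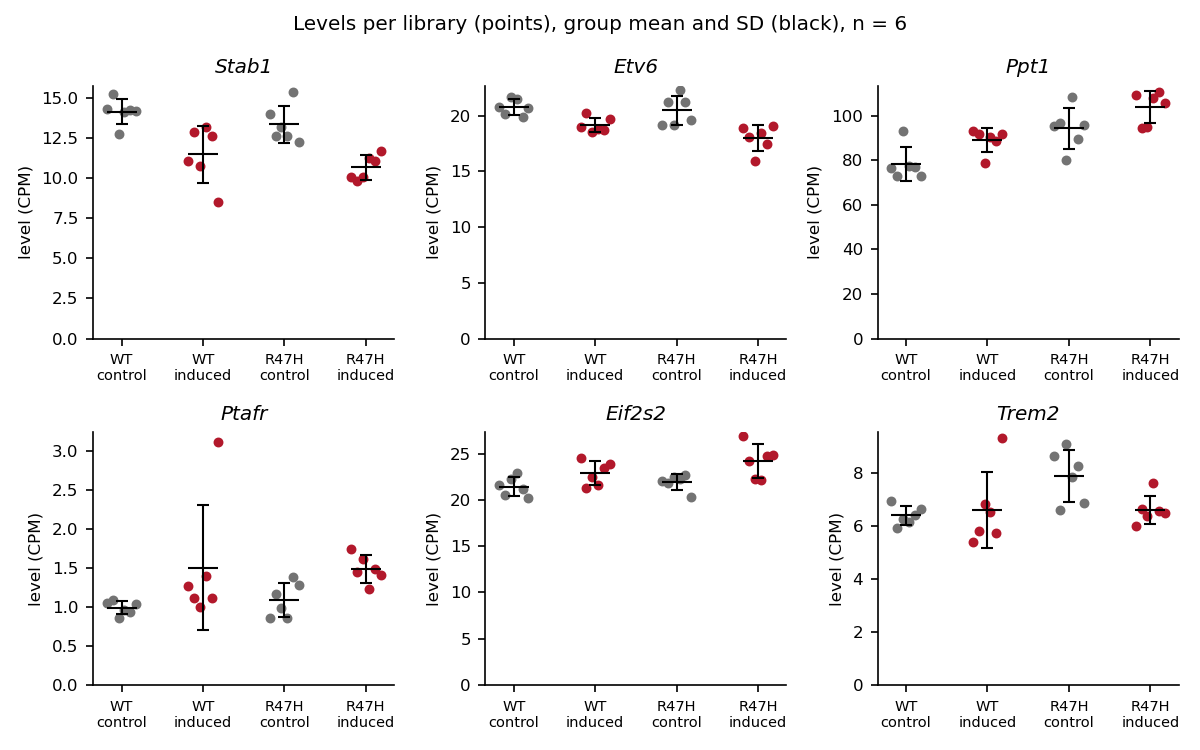
Levels in CPM (vertical axes, starting at 0) of 6 genes in the 4 groups, grey points for control and red points for induced libraries, with the group mean and SD in black (n = 6). Stab1 and Etv6 are lower and Eif2s2 higher in the induced group of each genotype, with overlap, and the WT_induced library at 3.12 CPM of Ptafr and 9.32 CPM of Trem2 is replicate 6.

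The 20 genes with a proper symbol and the lowest p are given as a description, since 0 passed in edgeR; 14 were lower and 6 higher in induced mice. Their log2 fold changes ran from -0.66 to 0.59, and each had the same sign in WT and R47H mice, which a choice by the pooled p favours. Their interaction p-values after adjustment over all genes ran from 0.470 to 0.995.

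The other lower genes have varied roles. Cckbr, the cholecystokinin receptor of cortical neurons, was at 43.1 CPM in control and 40.0 CPM in induced mice (log2 fold change -0.11, SE 0.03). Lrfn2, a synaptic adhesion protein, was at -0.17 (SE 0.04). Asic3, an acid-sensing ion channel, was at -0.54 (SE 0.15), from a mean of only 0.702 CPM in control mice. Map3k6, a stress-activated kinase, was at -0.39 (SE 0.12), with -0.14 in WT and -0.69 in R47H mice. Angptl2, a secreted angiopoietin-like protein, was at -0.21 (SE 0.06), and 10 of its 12 induced libraries were below the lowest control library while 1 was above the highest. Mks1, a protein of the base of the primary cilium, was at -0.24 (SE 0.07), with all 12 induced libraries below the control median. The urate transporter gene Slc22a12 was at -0.49 (SE 0.13), and 30.1% of its exonic bases are shared with Nrxn2, so its reads cannot be assigned with certainty in a library that does not mark strand. The same limit applies to Pagr1b (-0.14, all exonic bases shared with other genes), Zfp335os (-0.25, 18.4% shared) and Ccdc28b (-0.22, partly shared with Tmem234).

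Ptafr, the receptor for platelet-activating factor on myeloid cells, had the largest fold among the 6 higher genes with a mean of at least 1 CPM. Its level ran from 0.863 to 1.39 CPM (median 1.01) in control and from 1.003 to 3.12 CPM (median 1.41) in induced mice. Of the 12 induced libraries, 7 were above the highest control library. The log2 fold change of Ptafr was 0.52 (SE 0.15), and 0.35 (SE 0.09) without WT_induced replicate 6, its highest library. Klf14, a zinc-finger transcription factor gene, was at 0.59 (SE 0.17) from a mean of only 0.208 CPM in control mice.

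Eif2s2 encodes the beta subunit of the translation initiation factor eIF2. It was at a mean of 21.7 CPM in control and 23.5 CPM in induced mice (log2 fold change 0.12, SE 0.03), and 7 of 12 induced libraries were above the highest control library. Ppt1, a lysosomal palmitoyl thioesterase, was at 0.16 (SE 0.05), from 86.3 to 96.5 CPM. The levels of Ppt1 differed more between genotypes than between treatments, with group means of 78.3, 89.1, 94.2 and 104 CPM in WT_control, WT_induced, R47H_control and R47H_induced. Pdzd2, a PDZ-domain protein, was at 0.20 in WT and 0.02 in R47H mice, and Kbtbd3, a kelch-family protein, was at 0.18 (SE 0.05) over both.

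Genes of chromosome 4, which holds 6.34% of tested genes, made up 6 of the 20. Of these, 5 (Ccdc28b, Ptafr, Sfn, Stmn1 and Map3k6) lay between 129619274 and 134473843 (mm10), a stretch with 109 tested genes, or 0.554% of those tested. Stmn1, a microtubule-destabilising protein of growing neurons, had group means of 119, 111, 106 and 76.7 CPM in WT_control, WT_induced, R47H_control and R47H_induced, and a log2 fold change of -0.09 in WT and -0.47 in R47H mice. Sfn, which encodes 14-3-3 sigma of epithelia, was at -0.34 in WT and -1.07 in R47H mice. The window was chosen after the positions were seen, and whether shared inheritance of this stretch moves with treatment was not tested.

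**Figure D3:**
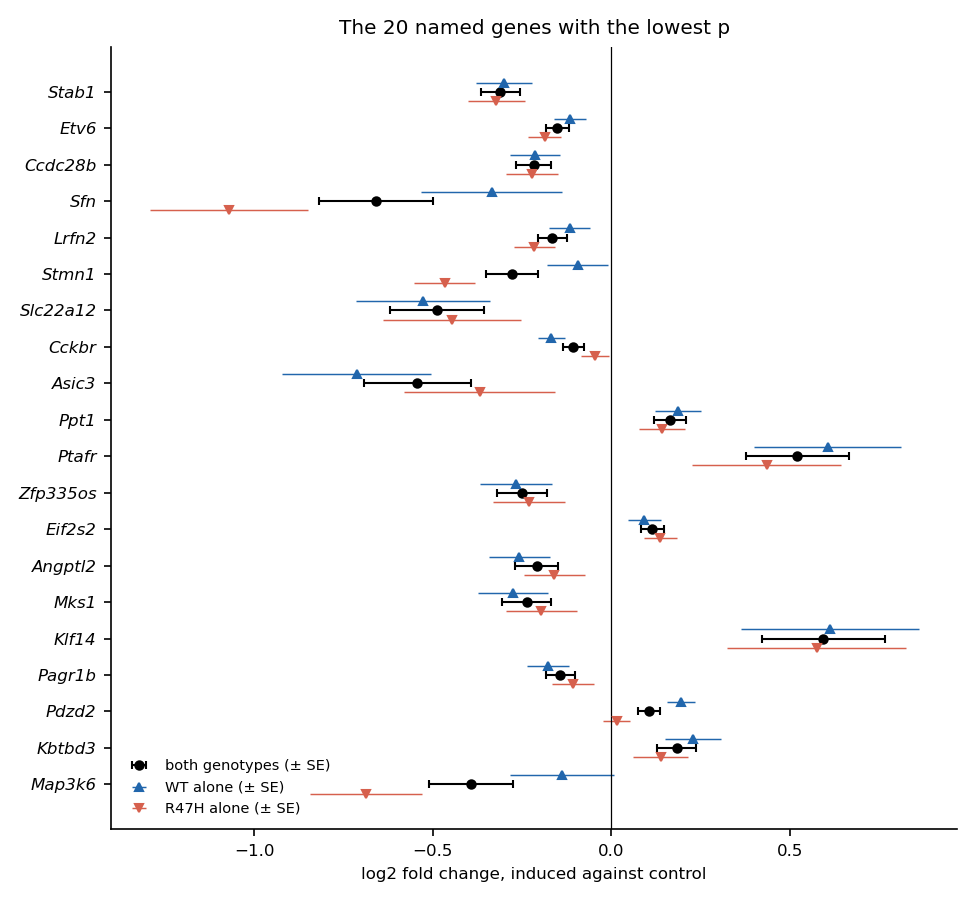
Log2 fold change of induced against control mice (horizontal axis, with SE) for the 20 genes with the lowest p, over both genotypes (black circles), in WT mice alone (blue triangles pointing up) and in R47H mice alone (red triangles pointing down). Stab1 has nearly equal values in both genotypes, while Sfn, Stmn1 and Map3k6 lie further from 0 in R47H mice and Pdzd2 and Cckbr in WT mice.

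None of the genes of tamoxifen's own receptors, their cofactors or their target genes passed the test. Esr1, the gene of oestrogen receptor alpha, ran from 2.85 to 4.53 CPM (median 3.75) in control and from 3.16 to 5.47 CPM (median 3.94) in induced mice, and the treatments overlapped over most of that range. Its log2 fold change was 0.13 (SE 0.09), with 0.29 in WT and -0.04 in R47H mice. Esr2, the gene of oestrogen receptor beta, was at -0.25 (SE 0.20), and its mean of 0.297 CPM in control mice gave little precision. Gper1, a membrane oestrogen receptor, was at 0.00 (SE 0.08). Among 13 tested receptors and coregulators, 6 were positive, 0 passed at an unadjusted p below 0.05, and 12 had an interval within 1.5-fold. Of 23 oestrogen target genes, 19 were tested, with 15 positive and a median log2 fold change of 0.04 against 0.00 over all genes. Siah2, a ubiquitin ligase gene induced by oestrogen, was the only target at an unadjusted p below 0.05 (0.11, SE 0.04), with 0.01 in WT and 0.21 in R47H mice. Pgr and Greb1, common reporters of the receptor that were singled out after their values were seen, were at 0.01 (SE 0.03) and 0.08 (SE 0.20).

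Sterol synthesis genes, which SREBP2 turns on together when cellular cholesterol is low, gave 0 calls. Of 24 tested members, 18 were positive, the median log2 fold change was 0.02, and 23 had an interval within 1.5-fold. The enzymes that tamoxifen is known to bind or affect did not stand apart. Ebp was at -0.02 (SE 0.05) and Dhcr7, the last reductase of the pathway, at 0.01 (SE 0.03). Cyp51, the lanosterol demethylase, was at 0.07 (SE 0.04), and Sqle, the squalene epoxidase, at 0.02 (SE 0.03).

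Lysosomal genes and genes of drug metabolism gave 0 calls as well. All 24 tested lysosomal members had intervals within 1.5-fold, 18 were positive, the median log2 fold change was 0.02, and 0 passed at an unadjusted p below 0.05. Lamp1, the main membrane protein of lysosomes, was at 0.03 (SE 0.02). In WT mice 20 of the 24 were positive and in R47H mice 6, with medians of 0.06 and -0.02. Without WT_induced replicate 6, 12 of the 24 were positive. Of 26 tested genes of drug metabolism and transport, 18 were positive with a median of 0.04, and 0 passed. Abcg2, an efflux transporter of the blood-brain barrier, was at 0.09 (SE 0.06), and Fmo2, a flavin monooxygenase, at 0.25 (SE 0.14).

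Trem2, the gene the construct was meant to express, did not pass the test. Its level ran from 5.93 to 9.08 CPM (median 6.77) in control and from 5.41 to 9.32 CPM (median 6.51) in induced mice, and the treatments overlapped over most of that range. The highest induced value was that of WT_induced replicate 6, and the next was 7.61 CPM. The log2 fold change of mouse Trem2 was -0.10 (SE 0.08, 95% interval -0.26 to 0.05, edgeR adjusted p = 0.997), and the permutation test of Trem2 alone gave an exact p of 0.168. Without WT_induced replicate 6 it was -0.17 (SE 0.06), which did not pass either, and this was the lowest value over 38 fits with other settings, of which the highest was -0.07. No source used here says whether construct reads were counted as mouse Trem2, so this value does not check the treatment labels. Among 16 tested partners of Trem2, 11 were positive with a median log2 fold change of 0.06 (14 in WT and 5 in R47H mice, medians 0.17 and -0.02), and 7 were positive with a median of -0.00 without WT_induced replicate 6. Adam17, a protease that sheds the receptor, was at 0.10 (SE 0.04).

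The genes that define homeostatic microglia were mixed. Of 25 tested members, 13 were positive. In WT mice 14 of the 25 were positive and in R47H mice 6, with medians of 0.01 and -0.10. At an unadjusted p below 0.05 there were 1 higher and 3 lower over both genotypes, against 2.41% and 2.11% of all genes. P2ry12, the purinergic receptor that guides microglial processes, ran from 27.3 to 37.3 CPM (median 32.6) in control and from 24.2 to 36.5 CPM (median 29.7) in induced mice. Its log2 fold change was -0.14 (SE 0.05), with -0.07 in WT and -0.22 in R47H mice. Of its 12 induced libraries, 11 were below the control median. Gpr34, a lysophospholipid receptor, was at -0.26 (SE 0.09), with -0.15 in WT and -0.36 in R47H mice. Cx3cr1, the fractalkine receptor whose locus carries CreER in all groups, was at -0.13 (SE 0.05).

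Removing WT_induced replicate 6 moved this list more than most. Without that library 7 of 25 microglial members were positive, the median was -0.06, and 1 was higher and 8 were lower at an unadjusted p below 0.05 (352 higher and 374 lower among all 19678 genes then). Cx3cr1 was then at -0.18 (SE 0.04), P2ry12 at -0.16 (SE 0.04) and Gpr34 at -0.30 (SE 0.09), and none passed after adjustment over all genes. The summed level of the 25 genes had medians of 1286 and 1280 CPM in WT_control and WT_induced and 1274 and 1243 CPM in R47H_control and R47H_induced. Genes of disease-associated microglia, which Trem2 helps to turn on, were positive in 22 of 24 members with a median of 0.06, and in 17 of 24 with a median of 0.02 without replicate 6. The direction was not common to the genotypes, with 21 positive in WT (median 0.15) and 6 in R47H mice (median -0.05). Cd52, a small surface glycoprotein of leukocytes, was at 0.95 (SE 0.35), and at 0.36 (SE 0.14) without that library. Its gene also lies in the stretch of chromosome 4 described above.

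Interferon and antigen presentation genes had the largest positive medians, and both medians were much smaller without 1 mouse. Of 24 tested interferon response genes, 23 were positive with a median log2 fold change of 0.43. At an unadjusted p below 0.05, 5 of the 24 were higher, against 2.41% of all genes. All 18 antigen presentation genes were positive, with a median of 0.62 and 3 higher at that p. Without WT_induced replicate 6 the medians were 0.15 and 0.09, with 20 of 24 and 14 of 18 positive. In either list 0 were then higher at that p, against 352 of all 19678 genes. The medians were 0.86 and 1.24 in WT mice and -0.03 and -0.08 in R47H mice. Gbp2, an interferon-induced GTPase, was at 1.26 (SE 0.52) over both genotypes, with 2.35 in WT and -0.08 in R47H mice, and at 0.57 (SE 0.31) without replicate 6. H2-K1, a class I molecule, was at 0.70 (SE 0.34) and at 0.21 (SE 0.15) without replicate 6. Replicate 6 was not alone, since WT_induced replicates 1 and 4 were also above the rest of their group in both genes. Gbp2 was at 14.4 and 5.44 CPM in replicates 1 and 4, and at 1.72 to 2.28 CPM in the rest apart from replicate 6. H2-K1 was at 38.6 and 39.3 CPM in replicates 1 and 4, and at 15.3 to 21.0 CPM in that rest. The summed level of the antigen presentation genes reached 1126 CPM in WT_induced, whose median was 235 CPM, while it ran from 160 to 189 CPM in R47H_induced and from 165 to 198 CPM in the controls of both genotypes.

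**Figure D4:**
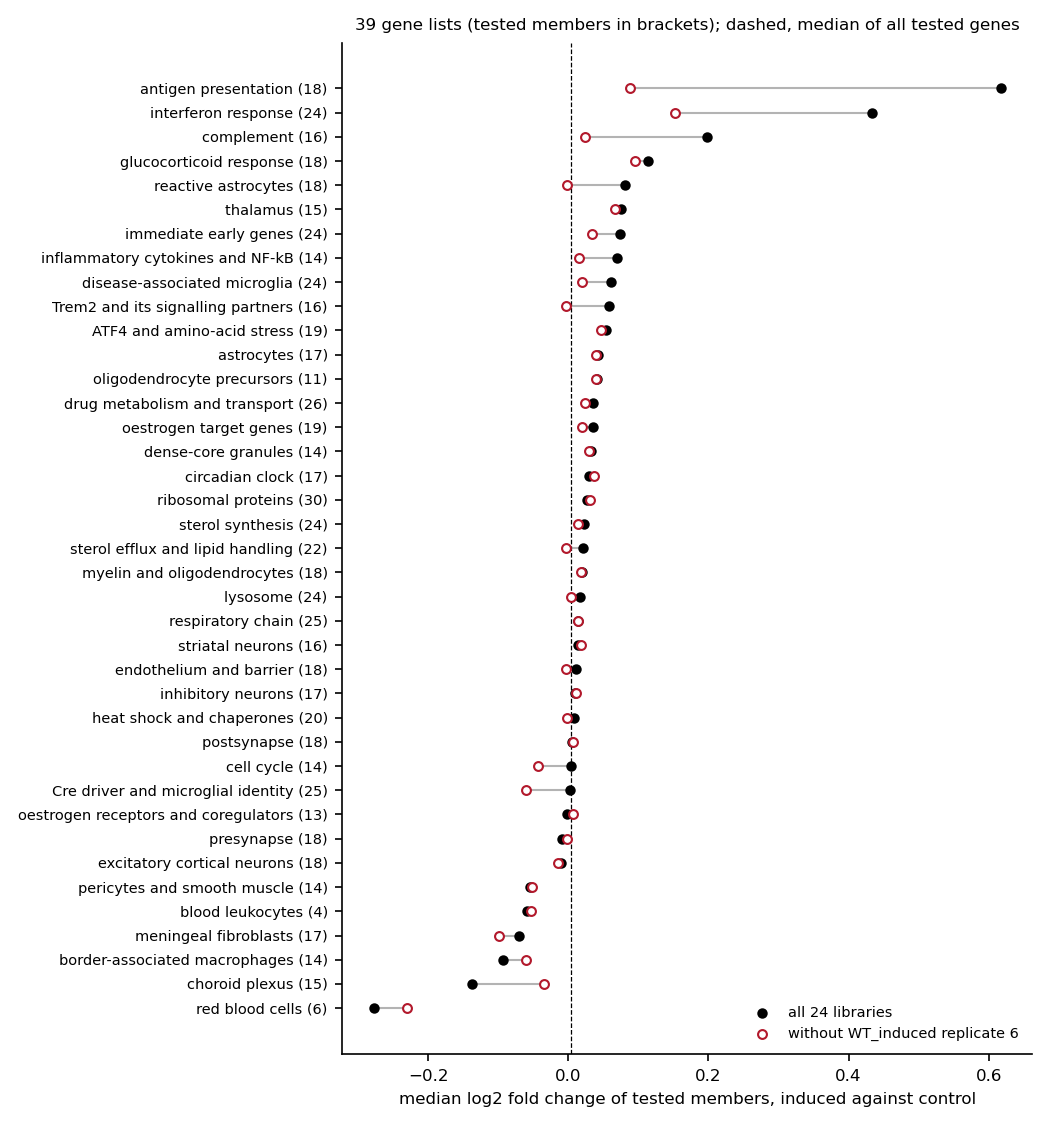
Median log2 fold change of induced against control mice (horizontal axis) over the tested members of 39 gene lists, with their number in brackets, for all 24 libraries (black) and without WT_induced replicate 6 (open red). The dashed line is the median of all tested genes. Antigen presentation moves from 0.62 to 0.09 and interferon response from 0.43 to 0.15, while most other lists lie close to the dashed line in both.

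Targets of ATF4, the transcription factor that amino-acid shortage and other stresses turn on after eIF2 is phosphorylated, leaned the same way in both genotypes. Of 19 tested members, 18 were positive with a median log2 fold change of 0.05, and 16 had the same sign in WT and R47H mice (46.6% of all tested genes did). At an unadjusted p below 0.05, 5 were higher and 0 lower, against 2.41% and 2.11% of all genes. Without WT_induced replicate 6, 18 were positive, 4 were higher at that p and the median was 0.05, and over 38 fits with other settings the median stayed between 0.04 and 0.06. The size of the differences was small. Atf4 itself ran from 61.9 to 92.3 CPM (median 73.6) in control and from 70.3 to 93.7 CPM (median 80.1) in induced mice, a log2 fold change of 0.11 (SE 0.04), with 0.05 in WT and 0.18 in R47H mice. Atf5, a related factor, was at 0.12 (SE 0.05), and Mthfd2, a mitochondrial enzyme of folate metabolism, at 0.15 (SE 0.07). Chac1, which degrades glutathione, was at 0.13 (SE 0.06), and Psat1, an enzyme of serine synthesis, at 0.05 (SE 0.03). Trib3, a pseudokinase that ATF4 induces, was the only negative member at -0.23 (SE 0.13). The list was chosen with earlier results of these data known, so its direction is no independent evidence.

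**Figure D5:**
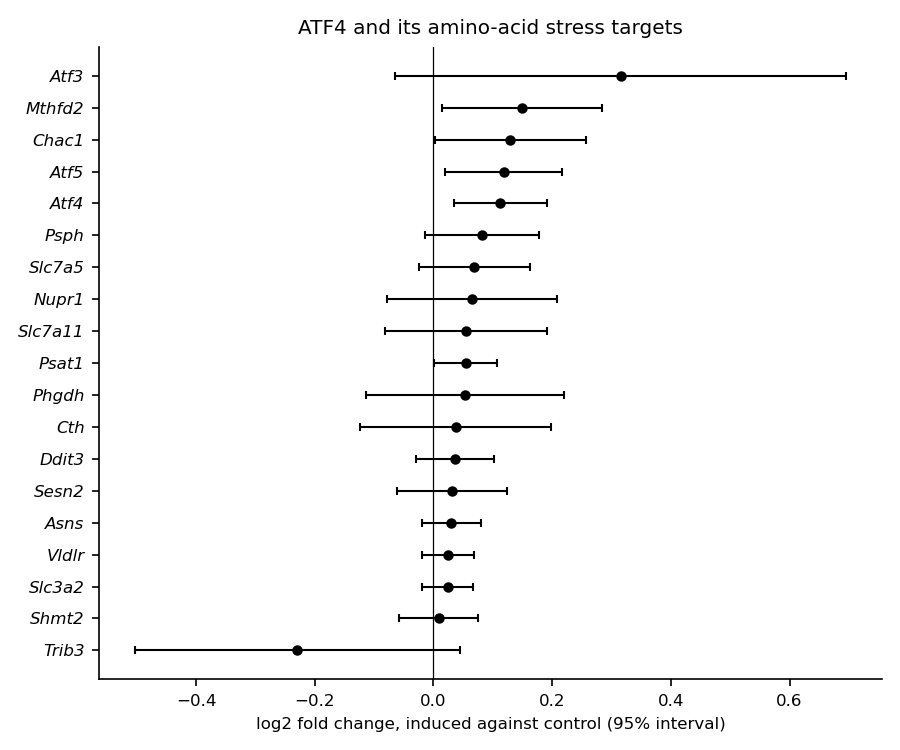
Log2 fold change of induced against control mice with its 95% interval (horizontal axis) for Atf4 and the other tested genes of its list, 19 in all, sorted by value. The 18 positive values lie between 0.01 and 0.32, most intervals include 0, and Trib3 lies at -0.23.

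The promoters of these genes were searched for the amino-acid response element TGATGNAA, to which ATF4 and its partners bind, on both strands from 250 bases before to 50 bases after each RefSeq gene start (GRCm38.p6). It was found in 7 of the 17 ATF4-list genes with such a window, in 3.97% of all 32851 windows and in 352 of the 12540 tested genes with a window. Those 352 genes had a median log2 fold change of 0.01, as did all genes with a window, and 14 were higher and 10 lower at an unadjusted p below 0.05, together 6.82% against 4.17% of all genes with a window. Among the 20 genes with the lowest p, 15 had a window, and the element was found in 2 of them. These were Ptafr, which was higher in induced mice, and Sfn, which was lower. Stretches of 5 list members and of these 2 genes are printed to let the matches be compared, each in the direction of its gene with the match in capitals. All lie before the gene start; matches in the list members Asns (23 bases before the start) and Trib3 (14 bases after it, and the only negative member) are not printed because their stretches reach into the transcript. Slc7a11 is shown with its match on the strand of the gene, and has another match on the opposite strand further on. In the other 6 the match is on the opposite strand, so it reads as the reverse complement of the element.
Chac1 (chr2:119351023-119351082, + strand): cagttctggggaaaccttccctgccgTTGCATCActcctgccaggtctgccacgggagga
Atf3 (chr1:191183410-191183469, - strand): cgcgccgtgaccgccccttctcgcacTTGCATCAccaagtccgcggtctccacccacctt
Nupr1 (chr7:126625547-126625606, - strand): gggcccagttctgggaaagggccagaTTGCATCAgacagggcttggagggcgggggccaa
Vldlr (chr19:27216794-27216853, + strand): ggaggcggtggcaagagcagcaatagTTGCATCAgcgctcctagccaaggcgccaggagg
Slc7a11 (chr3:50443646-50443705, - strand): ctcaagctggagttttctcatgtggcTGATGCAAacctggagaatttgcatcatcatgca
Ptafr (chr4:132563819-132563878, + strand): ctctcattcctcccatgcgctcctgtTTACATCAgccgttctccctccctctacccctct
Sfn (chr4:133602241-133602300, - strand): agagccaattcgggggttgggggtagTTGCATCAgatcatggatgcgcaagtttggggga
Among the list members shown, Slc7a11, a cystine transporter, was at 0.05 (SE 0.07), Atf3, a stress-induced partner of ATF4, was at 0.32 (SE 0.19), Nupr1, a stress-induced chromatin protein, at 0.06 (SE 0.07) and Vldlr, a lipoprotein receptor, at 0.02 (SE 0.02). A perfect oestrogen response element, the inverted repeat of GGTCA and TGACC with 3 bases between them, was found in 23 of 32851 windows (0.07%), in 0 of 14 oestrogen target genes with a window and in 0 of the 15 genes with a window among the 20 with the lowest p. A window without the letters says nothing of binding elsewhere.

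Genes that respond to glucocorticoids, the adrenal stress hormones, were positive in 16 of 18 members with a median log2 fold change of 0.11, and 0.10 without WT_induced replicate 6. At an unadjusted p below 0.05, 4 were higher and 1 lower, against 2.41% and 2.11% of all genes, and without that library 2 were higher and 1 lower. Sgk1, a kinase gene that glucocorticoids induce, ran from 45.6 to 71.6 CPM (median 55.2) in control and from 49.6 to 97.8 CPM (median 64.8) in induced mice. Its log2 fold change of 0.25 (SE 0.09) combined 0.03 in WT with 0.46 in R47H mice. Errfi1, a feedback inhibitor of the EGF receptor, was at 0.11 (SE 0.04), whereas Zbtb16, a zinc-finger factor that glucocorticoids also induce, was at -0.21 (SE 0.07), with -0.22 in WT and -0.19 in R47H mice. The defining target Fkbp5, named for that role after its value was seen, was at 0.05 (SE 0.04).

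The medians of activity-dependent and clock genes had opposite signs in the genotypes, and 0 genes were called for that difference. Immediate early genes were positive in 21 of 24 members over both, but their median was -0.10 in WT and 0.27 in R47H mice, and that of the clock genes was -0.03 and 0.08. Bdnf, a neurotrophin, was at 0.15 (SE 0.06), with 0.14 in WT and 0.15 in R47H mice. The clock gene Per1 was at 0.13 (SE 0.09), with -0.13 in WT and 0.40 in R47H mice, and Cry1, a clock repressor, at 0.09 (SE 0.04). Time of day at collection was not used here.

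Markers of tissue at the edge of the cortex are given beside Stab1, since stabilin-1 is also made by macrophages of the meninges and vessels. Of 14 genes of border-associated macrophages, Stab1 included, 5 were positive with a median log2 fold change of -0.09. In WT mice 6 were positive and in R47H mice 3, with medians of -0.01 and -0.17. Stab1 was the only member at an unadjusted p below 0.05 over both genotypes. The defining markers Mrc1, Cd163 and Lyve1 were at -0.03 (SE 0.09), -0.09 (SE 0.07) and -0.12 (SE 0.21). The summed level of the 13 members other than Stab1 ran from 15.8 to 18.3 CPM (median 16.04) in WT_control, from 14.4 to 22.4 CPM (median 17.7) in WT_induced, from 15.3 to 19.99 CPM (median 18.1) in R47H_control and from 14.8 to 18.1 CPM (median 16.4) in R47H_induced, so the groups overlapped. None of these 3 markers was at 0 in any library.

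Meningeal fibroblast genes were negative in 15 of 17 members, with a median of -0.07. Slc6a13, a GABA and taurine transporter of the meninges, was at -0.22 (SE 0.07). In WT mice 7 of the 17 genes were positive and in R47H mice 1, with medians of -0.04 and -0.15. Their summed level ran from 192 to 281 CPM in control and from 166 to 281 CPM in induced libraries of both genotypes. All 15 choroid plexus genes were negative with a median of -0.14, but their summed level ran from 23.4 to 678 CPM over the libraries, and without WT_induced replicate 6 the median was -0.03 with 5 positive. Red blood cell genes were negative in 6 of 6 members (median -0.28), with Hbb-bt, a beta globin, at -0.48 (SE 0.23). Pericyte and smooth muscle genes were negative in 11 of 14 (median -0.05). With the meningeal list as a covariate Stab1 was at -0.31 (edgeR adjusted p = 0.258). With the border-associated macrophage list without Stab1 it was at -0.31 (edgeR adjusted p = 0.117). The fit without either covariate gave -0.31 (edgeR adjusted p = 0.0845). Whether Stab1 moved with the amount of such tissue was not tested. Both covariates were chosen after the data were seen.

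Several other lists had larger medians in WT than in R47H mice. Complement genes were positive in 14 of 16 members with a median of 0.20, or 0.02 without WT_induced replicate 6. Their median was 0.40 in WT and -0.04 in R47H mice. Reactive astrocyte genes had a median of 0.08, or 0.26 in WT and -0.11 in R47H mice, and -0.00 without that library. Inflammatory cytokine and NF-kB genes had a median of 0.07 and thalamus genes one of 0.08. These medians were 0.15 and 0.14 in WT and -0.01 and -0.02 in R47H mice. Without WT_induced replicate 6 the medians over both genotypes were 0.02 and 0.07. The inflammatory list then had 8 of 14 positive, against 11 of 14 with all libraries. The 4 tested genes of blood leukocytes had a median of -0.06.

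Neuron, myelin and ribosomal protein genes had smaller medians. Excitatory neuron genes had a median of -0.01, and Bcl11b, a factor of deep cortical layers, was at -0.08 (SE 0.03). Of 18 myelin genes, 13 were positive with a median of 0.02, and Ermn, a cytoskeletal protein of oligodendrocytes, was at 0.10 (SE 0.05). Astrocyte genes were positive in 15 of 17 with a median of 0.04, but in 15 in WT and only 6 in R47H mice. Ribosomal protein genes were positive in 28 of 30 with a median of 0.03, and Rpl32 was at 0.05 (SE 0.02). Every tested member of the excitatory neuron, myelin, astrocyte and ribosomal protein lists had a 95% interval within 1.5-fold, and 0 passed after adjustment over all genes.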

How the data were processed

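Poly-A RNA of the cortex of 24 mice was sequenced with a kit that does not mark strand, per the labels' protocols. The authors deposited raw read counts per gene without normalization. Per the submitters' processing notes the build was mm10, with STAR 2.5.2b and featureCounts 1.5.1; the strand setting and the annotation used are not stated in these sources. Groups follow the genotype and treatment given for each sample. Of 43346 genes, 9264 were at 0 in every library and 19678 passed edgeR's filterByExpr. Within groups, all 60 pairs of libraries differed beyond sampling noise (chi-square per degree of freedom 4.60 to 67.8). Whether replicates were independent beyond being separate mice was not checked, and p-values measure the spread between these mice.

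After TMM scaling, counts were tested with edgeR 4.0.16 in R 4.3.3 (robust quasi-likelihood F-test, additive terms for genotype and treatment), with Benjamini-Hochberg adjustment over all tested genes and a threshold of 0.05. SE is the log2 fold change divided by the square root of F, and levels are CPM of the TMM-scaled total. Values within each genotype and the interaction come from a fit of 4 group means. The procedure was tested on simulated data. Trem2 and library measures were compared by a two-sided exact permutation test within genotype (853776 assignments). Named genes are Trem2, the 20 genes with a proper symbol and the lowest p, the 3 tested members with the lowest p of each of 39 gene lists, and every tested member of the oestrogen receptor and sterol synthesis lists; other members were named after their values were seen. No list was tested as a set. The comparison, the lists and the rules were chosen with earlier results of these data known. Gene IDs were matched to GENCODE vM21 (97.96% found) for exon overlaps. Alternatives covered scaling, filters, DESeq2 1.42.0, limma 3.58.1 (voom), the design, covariates and each library left out in turn. Some named genes are not reported here.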

Additional observations from a re-analysis of the deposited data

Results flagged for a closer look

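In the 4 groups of 6 mice, 92 combinations of a group with a gene or a library measure were tested. The library measures were total counts and the share of the rRNA-like genes. In 12, the highest or lowest library's gap to its neighbour was above the 95% critical value of Dixon's test for 6 samples. All of these were gene levels. Chance gives about 1 in 20, or 4.6 of 92. In CPM, WT_induced replicate 6 was set apart in 4 genes: Ptafr at 3.12 (nearest library 1.40), Trem2 at 9.32 (nearest 6.85), Ccdc28b at 8.14 (nearest 10.3) and Stmn1 at 86.1 (nearest 110.5). Ptafr, Ccdc28b and Stmn1 lie in the stretch of chromosome 4 described above. Ppt1 was at 93.1 CPM in WT_control replicate 3, above the other controls of that genotype (nearest 77.3), and at 78.6 CPM in WT_induced replicate 3, below the others of its group (nearest 88.6). Stmn1 was at 98.5 CPM in R47H_induced replicate 3, above the rest of that group (nearest 75.9).

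Angptl2 was at 5.66 CPM in R47H_control replicate 1 (nearest 4.87) and at 5.73 CPM in R47H_induced replicate 5 (nearest 4.23). Zfp335os was at 2.67 CPM in R47H_induced replicate 1 (nearest 2.24), Eif2s2 at 20.3 CPM in R47H_control replicate 6 (nearest 21.9) and Pagr1b at 5.98 CPM in R47H_induced replicate 6 (nearest 6.53). The causes of these gaps were not tested.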

How the results depend on the processing

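The count of genes called at an adjusted p below 0.05 was 0 in edgeR and 0 in 33 of 38 alternative fits. It was 1 with no filter on low counts (Stab1), 2 with DESeq2 (Stab1 and Etv6) and ranged from 0 to 1 over the 24 fits that each left out a library (Stab1, without WT_induced replicate 2, 4 or 6). At an adjusted p below 0.1 it was 1. No gene was called as higher in any fit, and genes at an unadjusted p below 0.05 numbered 659 to 1769. None of the 20 genes with the lowest p changed sign in any fit, and at most 6 of the 166 named genes did. Ccr2, at 1.29 over all libraries, was at 0.04 with voom sample weights and at -0.05 without WT_induced replicate 6, and Cybb, at 0.90, was then at 0.13. The median of the microglial identity list changed sign in 23 of 38 fits (-0.06 to 0.01), that of the oestrogen receptors in 19 (-0.01 to 0.01), cell cycle in 9 (-0.04 to 0.05), sterol efflux and lipid handling in 5, heat shock in 4, choroid plexus (-0.24 to 0.02) and inhibitory neurons in 3 each, endothelium in 2, and Trem2 partners, reactive astrocytes and striatal neurons in 1 each. The covariates for the meningeal and the border-associated macrophage lists were added after the data were seen. No paired analysis was possible because the titles number the mice singly and the replicate numbers used here only follow the order of the samples.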
